A study of Mus musculus with 38 samples.

Results

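The 50 genes described here act in germ cells, meiosis and pluripotency. They are not on the separate lists for the synaptonemal complex, the piRNA pathway and the testis copies of housekeeping genes. Some still touch these pathways, such as Tdrkh in piRNA maturation. The rule that chose them uses gene symbols, not ratios, but the genes were chosen with earlier results of these data known. A probe carried the current or an older symbol of 43 of the 50, and the remaining 7 (Mei1, Rnf17, Sohlh1, Prdm9, Prdm14, Fkbp6 and Mageb4) were not analysed here. Probes for Tex13b, Dppa5a, Tex19.1 and Tfap2c carried the older names Tex13, Dppa5, Tex19 and Tcfap2c. Each measured gene rested on 1 probe, except Zpbp, which had 2. The whole table held 18172 named genes tested in thymus and 18258 tested in fibroblasts.

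The study compared embryos with hypomorphic Dnmt3b, in which the DNA methyltransferase has reduced function, with wild-type embryos of the same 129SvJae x C57BL/6 hybrid background. The hypomorph thymus samples came from 5 embryos of 18.5 days post coitum (18 arrays), and the hypomorph fibroblasts from 5 embryos of 12.5 days post coitum (20 arrays). The labels of 15 thymus arrays give the genotype as m3/m24, while those of 3 thymus arrays and of the fibroblast arrays give only a sample number opposite a wild-type channel. The reference was in each tissue a pool of RNA from 5 wild-type thymus or fibroblast samples, so each array gave a log2 ratio of hypomorph over pool and the spread among wild-type embryos was not measured.

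DNMT3B adds methyl groups to unmethylated cytosines during embryonic development. Loss of its function causes ICF syndrome in humans, an immunodeficiency with unstable centromeres. Many germline genes carry methylated CpG-rich promoters in somatic cells, and some of them, Dazl and Tex19.1 among them, are known to depend on this methylation for their silence. Other germline genes have CpG-poor promoters, or need transcription factors that somatic cells lack. The comparison asks how selectively germline genes responded in the hypomorph.

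Promoter windows of 300 bases, 250 before to 50 after the RefSeq start (GRCm38.p6), were found for 31 of the 43 measured genes. The 5 printed below were chosen after the ratios were seen. Hormad2, Tex19.1 and Tex14 are the genes of the set with the lowest p-values that had a window, Dazl is a CpG-rich gene whose ratio lay near 0, and Slc25a31, a testis paralogue outside the set, passed the test in thymus. Capitals mark the CpG dinucleotides, the sites that DNMT3B methylates. The windows are, in the order printed, chr11:4441033-4441332 on the minus strand, chr11:121145893-121146192 on the plus strand, chr11:87404815-87405114 on the plus strand, chr17:50293571-50293870 on the minus strand and chr3:40708621-40708920 on the plus strand.
Hormad2: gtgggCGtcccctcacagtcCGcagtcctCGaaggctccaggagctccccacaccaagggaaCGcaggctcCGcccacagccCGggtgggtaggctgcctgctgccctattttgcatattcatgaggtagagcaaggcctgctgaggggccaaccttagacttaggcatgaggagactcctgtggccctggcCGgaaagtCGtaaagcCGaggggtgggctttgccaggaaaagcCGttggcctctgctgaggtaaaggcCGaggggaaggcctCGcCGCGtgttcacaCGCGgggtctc
Tex19.1: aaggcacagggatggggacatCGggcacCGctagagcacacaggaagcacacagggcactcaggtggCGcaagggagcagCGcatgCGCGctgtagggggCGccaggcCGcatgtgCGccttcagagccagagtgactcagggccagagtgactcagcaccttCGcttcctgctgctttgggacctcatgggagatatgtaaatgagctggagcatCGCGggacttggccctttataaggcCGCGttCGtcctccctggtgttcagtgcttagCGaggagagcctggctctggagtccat
Tex14: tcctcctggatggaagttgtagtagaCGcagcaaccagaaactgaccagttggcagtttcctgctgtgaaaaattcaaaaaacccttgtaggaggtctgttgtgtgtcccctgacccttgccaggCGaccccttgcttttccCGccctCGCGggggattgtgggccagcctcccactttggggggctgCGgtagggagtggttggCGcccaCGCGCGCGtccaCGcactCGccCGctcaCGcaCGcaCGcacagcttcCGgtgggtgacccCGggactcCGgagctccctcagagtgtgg
Dazl: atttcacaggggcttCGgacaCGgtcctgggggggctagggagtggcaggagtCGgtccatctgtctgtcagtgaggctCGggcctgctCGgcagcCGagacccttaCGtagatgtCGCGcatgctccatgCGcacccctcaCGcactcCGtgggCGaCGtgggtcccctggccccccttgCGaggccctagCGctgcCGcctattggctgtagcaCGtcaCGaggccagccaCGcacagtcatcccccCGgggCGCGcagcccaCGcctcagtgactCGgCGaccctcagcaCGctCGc
Slc25a31: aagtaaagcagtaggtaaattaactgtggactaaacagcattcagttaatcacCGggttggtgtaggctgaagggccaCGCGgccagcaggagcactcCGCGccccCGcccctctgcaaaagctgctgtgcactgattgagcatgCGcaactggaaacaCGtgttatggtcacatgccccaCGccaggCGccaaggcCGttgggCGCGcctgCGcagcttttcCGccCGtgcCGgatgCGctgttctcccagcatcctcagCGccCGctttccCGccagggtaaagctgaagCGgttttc

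The Dazl window held 28 CpG, that of Slc25a31 22, that of Tex14 20, and those of Hormad2 and Tex19.1 16 each. At least 15 CpG were present in 13 of the 31 windows (41.9%), against 35.2% of 27025 windows of all genes, and the median was 11 CpG against 7. The letters GCGGGA, the core of a motif bound by the repressor E2F6, searched on both strands (TCCCGC on the other), was found in 7 of the 31 windows (22.6%), against 20.1% of all windows. It was found in 7 of 10 windows of synaptonemal and cohesin genes (70.0%), 3 of 14 of the piRNA pathway (21.4%) and 4 of 14 of testis paralogues (28.6%).

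One fibroblast array stood apart from the others. Array 4 of fibroblast embryo 4 correlated below 0 with the other arrays of its embryo after the dye profile was removed, and with another way of removing the dye effect 3 fibroblast arrays did so (arrays 2 and 4 of embryo 1 and array 4 of embryo 4) and 4 thymus arrays (arrays 1 and 2 of embryo 1 and both arrays of embryo 5, at -0.0672 to -0.00514). Array 2 of thymus embryo 3, whose label gives no genotype, read high for several genes of the set and low for others. Brdt was at -1.44 and Tex14 at -0.69 on it, against -0.94 and -0.08 on the embryo's other Cy5 array. No gene of the set passed in the settings that left these arrays out. Array medians before centring ran from -0.887 to 1.14 log2. Dnmt3b itself averaged -0.08 ± 0.15 log2 in hypomorph thymus and 0.11 ± 0.11 in hypomorph fibroblasts (SD, n = 5 embryos each), and a hypomorphic allele need not lower its RNA, so this gene checks no label. The Y-linked gene Eif2s3y ran from -3.43 to 0.71 log2 over the thymus embryos and from -3.69 to 1.00 over the fibroblast embryos. The labels give no sexes.

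None of the 43 genes passed an adjusted p of 0.05 (limma, Benjamini-Hochberg over all features) in either tissue. Of all features, 0.0228% of 21947 passed in thymus and 0.00454% of 22025 in fibroblasts. The mean log2 ratios of the 43 genes had a median of 0.01 in thymus and 0.00 in fibroblasts, the values that all features had too (0.01 and 0.00). They ran from -0.10 to 0.47 in thymus, with 25 above 0 and 18 below (58.1% above, against 54.9% of all features), and from -0.23 to 0.46 in fibroblasts, with 21 above and 22 below (48.8% above, against 49.1%). The 95% interval of the mean lay within 1 log2 unit of 0 for 42 of the 43 genes in thymus (97.7%, against 99.3% of all features) and for all 43 in fibroblasts (100%, against 98.3%). Sohlh2 in thymus was the exception. A ratio carries no intensity, so whether a probe was above background is unknown, and a ratio near 0 shows neither that a gene was expressed nor that it was silent.

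**Figure D1:**
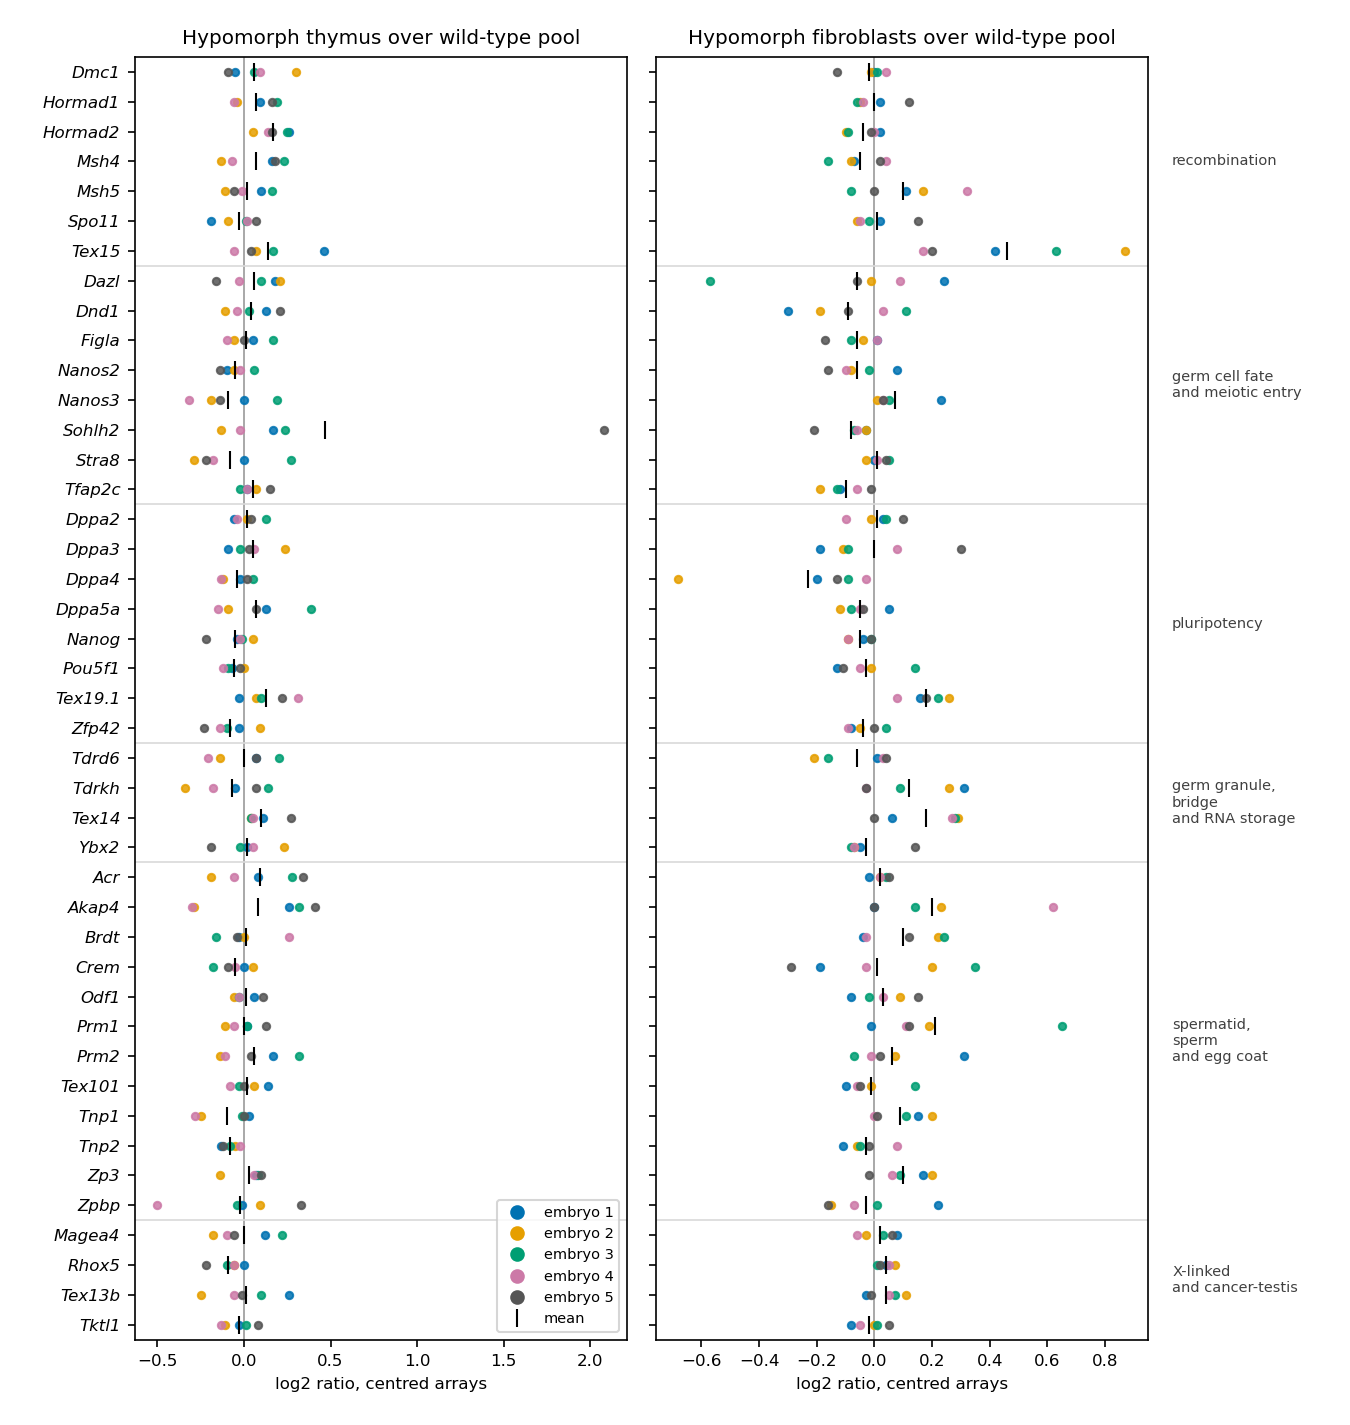
Log2 ratio of hypomorph over wild-type pool for the 43 measured genes (rows, grouped by role), in thymus on the left and fibroblasts on the right. Each point is 1 embryo and the black tick is the mean of 5. Most means lie within 0.1 of 0, Sohlh2 of thymus embryo 5 stands at 2.08, and all 5 fibroblast embryos lie above 0 for Tex15.

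Before adjustment, 1 of the 43 genes had a p under 0.05 with a higher mean in hypomorph thymus (2.33%, against 2.69% of all features) and 0 with a lower mean (against 4.79% of all features). In fibroblasts 3 genes had such a p with a higher mean (6.98%, against 8.23%) and 1 with a lower mean (2.33%, against 7.83%). Hormad2 and Tex14 were above 0 in all 5 thymus embryos and Pou5f1 and Tnp2 below 0 in all 5, which is 4.65% of the genes in each direction, against 3.53% of all features above and 4.86% below. In fibroblasts 5 genes were above 0 in all 5 embryos (11.6%, against 7.80%) and 4 below (9.30%, against 9.03%). Each of these shares rests on at most 5 genes.

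Recombination genes had the highest thymus median of the 6 roles, 0.07 log2, with 6 of 7 measured genes above 0, where 54.9% of all features lay. Their fibroblast median was 0.00, with 3 of 7 above 0. Hormad2, a HORMA-domain protein that coats unsynapsed meiotic chromosome axes, had log2 ratios of 0.26, 0.05, 0.25, 0.14 and 0.16 in hypomorph thymus embryos 1 to 5. All 5 embryos lay above the pool, with no value past 0.26. The mean was 0.17 ± 0.08 (SD, n = 5, 1.13-fold, 95% interval 0.06 to 0.29), with an adjusted p of 0.402 in limma. The arrays with the hypomorph in Cy5 were above 0 in 9 of 9 cases (mean 0.40) and those with it in Cy3 in 3 of 9 (mean -0.05). With single arrays as the values and the embryo as a random block in limma, the mean was 0.18 and the adjusted p 0.0290. In that setting 413 features passed in thymus. Arrays of an embryo are technical repeats, so this p is not read as support. In hypomorph fibroblasts Hormad2 averaged -0.04 ± 0.06 (95% interval -0.12 to 0.05, adjusted p 0.642), and only embryo 1 lay above 0, at 0.02. Its fibroblast arrays averaged 0.19 with the hypomorph in Cy5 and -0.26 with it in Cy3.

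Tex15, a testis protein needed for repair of meiotic DNA breaks, had the highest mean of the set in fibroblasts. In hypomorph thymus embryos 1 to 5 it gave log2 ratios of 0.46, 0.07, 0.17, -0.06 and 0.04, a mean of 0.14 ± 0.20 (95% interval -0.05 to 0.32, adjusted p 0.840), with arrays averaging -0.14 with the hypomorph in Cy5 and 0.43 with it in Cy3. Embryo 1 was the high one there and embryo 4 lay below the pool. The log2 ratios were 0.42, 0.87, 0.63, 0.17 and 0.20 in hypomorph fibroblast embryos 1 to 5. All were above the pool, embryos 4 and 5 by the least. The mean was 0.46 ± 0.29 (SD, n = 5, 1.37-fold, 95% interval 0.19 to 0.73), with an adjusted p of 0.183 in limma. Of the single arrays 8 of 10 with the hypomorph in Cy5 and 10 of 10 with it in Cy3 were above 0. Without array 4 of embryo 4, which read -0.76, the mean was 0.50 and the adjusted p 0.0978. The random block setting gave a mean of 0.46 and an adjusted p of 0.00627, with 2110 features past the threshold in fibroblasts. It takes technical repeats as values, so this p is not read as support either.

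None of the genes that make and process meiotic breaks passed the test in either tissue. Spo11, which cuts the DNA, averaged -0.03 ± 0.11 in thymus and 0.01 ± 0.08 in fibroblasts. Dmc1, the meiotic strand-exchange recombinase, averaged 0.06 ± 0.15 and -0.02 ± 0.07. Msh4 and Msh5 form the complex that stabilises crossover intermediates. Msh4 averaged 0.07 ± 0.16 in thymus and -0.05 ± 0.08 in fibroblasts, and Msh5 0.02 ± 0.11 and 0.10 ± 0.15. Without array 4 of embryo 4 the fibroblast mean of Msh5 was 0.03. Hormad1, the partner of Hormad2 on chromosome axes, averaged 0.07 ± 0.11 and 0.00 ± 0.08. For each of these 5 genes the spread between embryos was as large as the mean or larger.

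**Figure D2:**
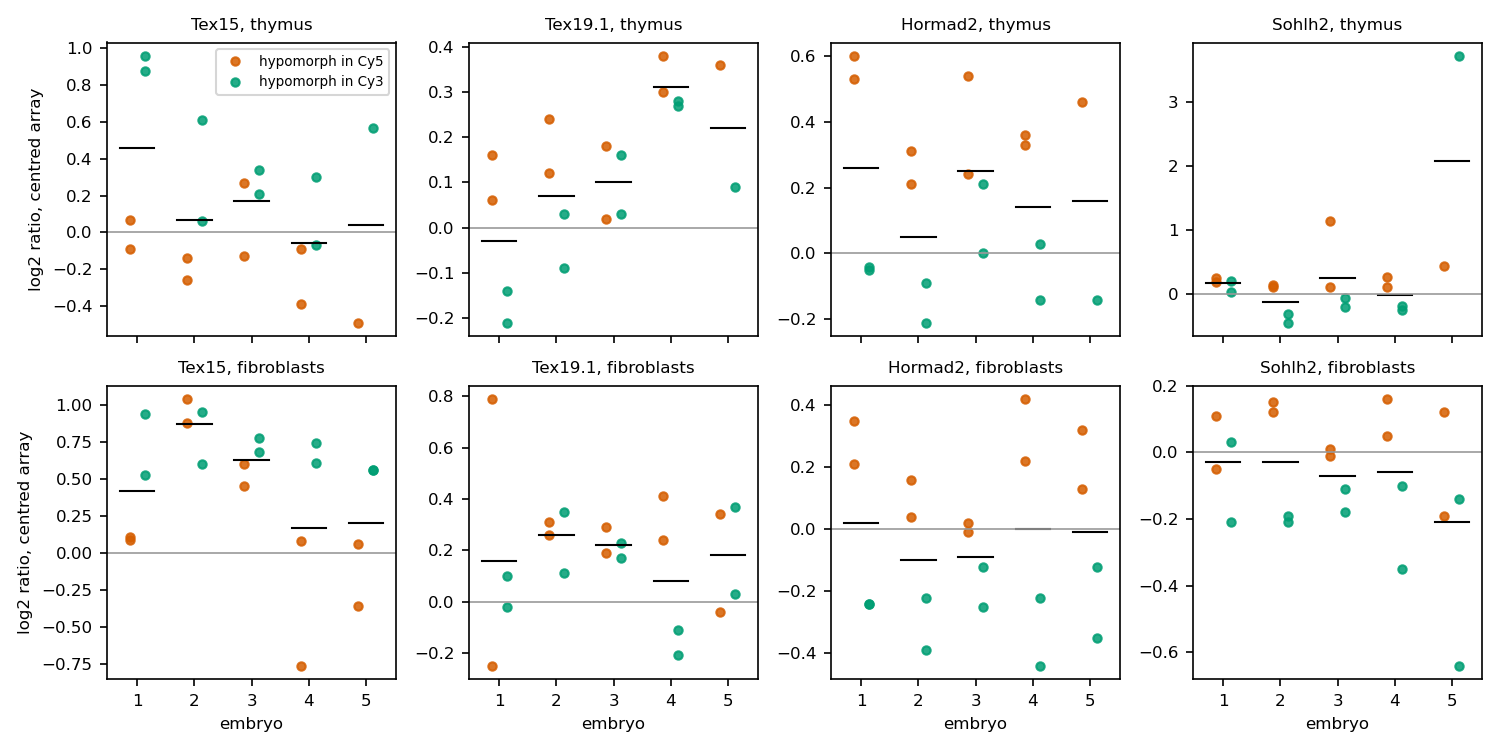
Log2 ratio of each array for Tex15, Tex19.1, Hormad2 and Sohlh2, with thymus above and fibroblasts below; orange points have the hypomorph in Cy5, green points in Cy3, and the black line is the embryo's mean over both dyes. The vertical scales differ between panels. Tex15 in fibroblasts is above 0 in 18 of 20 arrays, and the Sohlh2 mean of thymus embryo 5 rests on 1 Cy3 array at 3.72.

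Genes of germ cell fate and meiotic entry had a median of 0.03 in thymus (8 measured, 5 above 0) and -0.06 in fibroblasts (2 above 0). Dazl, an RNA-binding protein that licenses germ cells for sexual differentiation, had log2 ratios of 0.18, 0.21, 0.10, -0.03 and -0.16 in hypomorph thymus embryos 1 to 5. Its thymus mean was 0.06 ± 0.15 (95% interval -0.09 to 0.21). In hypomorph fibroblasts it gave 0.24, -0.01, -0.57, 0.09 and -0.06, a mean of -0.06 ± 0.31 (95% interval -0.35 to 0.22). Embryos lay on both sides of 0 in both tissues, and without fibroblast embryo 3 the mean was 0.06. Its fibroblast adjusted p was 0.816 in limma, and its arrays averaged -0.07 with the hypomorph in Cy5 and -0.06 with it in Cy3. Stra8, the retinoic acid target that starts meiosis, averaged -0.08 ± 0.22 in thymus (95% interval -0.28 to 0.12, adjusted p 0.921, arrays at -0.06 in Cy5 and -0.08 in Cy3 on average) and 0.01 ± 0.03 in fibroblasts.

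Sohlh2, a helix-loop-helix factor of early spermatogonia and oocytes, had the highest thymus mean of the set and the widest interval. Its log2 ratios were 0.17, -0.13, 0.24, -0.02 and 2.08 in hypomorph thymus embryos 1 to 5. The first 4 embryos lay close to the pool, and embryo 5 alone was far above it. The mean was 0.47 ± 0.91 (95% interval -0.27 to 1.20, adjusted p 0.893 in limma), and 0.06 without embryo 5. That embryo had 2 arrays, which read 0.43 with the hypomorph in Cy5 and 3.72 with it in Cy3, and both are among the thymus arrays named above. Without those 4 arrays, which leaves out embryo 5, the Sohlh2 mean was 0.08. In fibroblasts Sohlh2 lay below 0 in all 5 embryos, at -0.21 to -0.03, a mean of -0.08 ± 0.08 (95% interval -0.18 to 0.02, adjusted p 0.381, arrays at 0.05 in Cy5 and -0.21 in Cy3 on average).

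The RNA-binding repressors of the germ line lay near 0. Nanos3, which protects primordial germ cells, averaged -0.09 ± 0.20 in thymus (95% interval -0.27 to 0.09, adjusted p 0.917, arrays at 0.17 in Cy5 and -0.35 in Cy3 on average) and 0.07 ± 0.09 in fibroblasts, and Nanos2, which represses meiosis in the male, -0.05 ± 0.08 and -0.06 ± 0.09. Dnd1, which protects germ cell mRNAs, averaged 0.04 ± 0.13 in thymus and -0.09 ± 0.17 in fibroblasts (95% interval -0.25 to 0.08, adjusted p 0.554, arrays at -0.33 in Cy5 and 0.16 in Cy3 on average). Figla, the oocyte factor that activates egg coat genes, averaged 0.01 ± 0.11 and -0.06 ± 0.08. Tfap2c, a transcription factor of primordial germ cell specification, averaged 0.05 ± 0.06 in thymus. Its log2 ratios were -0.12, -0.19, -0.13, -0.06 and -0.01 in hypomorph fibroblast embryos 1 to 5. It lay below the pool in all 5, with a mean of -0.10 ± 0.07 (95% interval -0.20 to -0.01, adjusted p 0.285 in limma), and its arrays averaged -0.01 with the hypomorph in Cy5 and -0.19 with it in Cy3.

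Pluripotency genes gave medians of -0.01 in thymus and -0.03 in fibroblasts (8 measured). Tex19.1, which restrains retrotransposons in germ cells and placenta, gave -0.03, 0.07, 0.10, 0.31 and 0.22 in hypomorph thymus embryos 1 to 5, a mean of 0.13 ± 0.13 (95% interval 0.00 to 0.27, adjusted p 0.689) with embryo 1 just below the pool. Hypomorph fibroblast embryos 1 to 5 gave 0.16, 0.26, 0.22, 0.08 and 0.18. All 5 were above the pool and close to each other. The mean was 0.18 ± 0.07 (SD, n = 5, 1.13-fold, 95% interval 0.09 to 0.27), with an adjusted p of 0.153 in limma, and 0.19 with an adjusted p of 0.0889 without array 4 of embryo 4. Tex19.1 arrays averaged 0.20 in Cy5 and 0.05 in Cy3 in thymus, and 0.26 and 0.10 in fibroblasts.

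The core pluripotency factors did not pass the test in either tissue. Pou5f1 (Oct4) averaged -0.06 ± 0.05 in thymus, below 0 in all 5 embryos, and -0.03 ± 0.11 in fibroblasts. Nanog averaged -0.05 ± 0.10 and -0.05 ± 0.04, and Zfp42 (Rex1) -0.08 ± 0.12 (95% interval -0.21 to 0.05, adjusted p 0.894) and -0.04 ± 0.05. Zfp42 thymus arrays averaged -0.57 with the hypomorph in Cy5 and 0.44 with it in Cy3. Dppa2 and Dppa4 are chromatin proteins that act as a pair. Dppa2 averaged 0.02 ± 0.08 in thymus and 0.01 ± 0.07 in fibroblasts. Dppa4 averaged -0.04 ± 0.08 in thymus. It gave -0.20, -0.68, -0.09, -0.03 and -0.13 in hypomorph fibroblast embryos 1 to 5, with embryo 2 far below the others, a mean of -0.23 ± 0.26 (95% interval -0.47 to 0.02, adjusted p 0.337 in limma) and -0.11 without embryo 2. Its fibroblast arrays averaged -0.66 with the hypomorph in Cy5 and 0.20 with it in Cy3. Dppa3 (Stella), which shields the maternal genome from demethylation, averaged 0.05 ± 0.12 and 0.00 ± 0.20, and Dppa5a 0.07 ± 0.21 and -0.05 ± 0.07.

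Genes of the germ granule, the intercellular bridge and RNA storage had medians of 0.01 in thymus and 0.05 in fibroblasts (4 measured). Tex14, a component of the bridges that join dividing germ cells, gave 0.11, 0.04, 0.04, 0.05 and 0.27 in hypomorph thymus embryos 1 to 5, a mean of 0.10 ± 0.10 (95% interval -0.02 to 0.22, adjusted p 0.758). In hypomorph fibroblasts it gave 0.06, 0.29, 0.28, 0.27 and 0.00, a mean of 0.18 ± 0.14 (95% interval 0.04 to 0.32, adjusted p 0.247 in limma). The dye orientations disagreed in sign for this probe in both tissues. Tex14 arrays averaged -0.47 with the hypomorph in Cy5 and 0.63 with it in Cy3 in thymus, and -0.32 and 0.68 in fibroblasts. Tdrkh, a Tudor protein of piRNA maturation, averaged -0.07 ± 0.19 in thymus and 0.12 ± 0.16 in fibroblasts (95% interval -0.04 to 0.28, adjusted p 0.413, arrays at 0.33 in Cy5 and -0.09 in Cy3 on average). Tdrd6, a scaffold of the chromatoid body, averaged 0.00 ± 0.17 in thymus and -0.06 ± 0.12 in fibroblasts (95% interval -0.19 to 0.07, adjusted p 0.601, arrays at -0.03 and -0.09). Ybx2, which stores germ cell mRNAs, averaged 0.02 ± 0.15 and -0.03 ± 0.09.

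Spermatid, sperm and egg coat genes, 12 in all, had medians of 0.01 in thymus and 0.05 in fibroblasts, with no p under 0.05 even before adjustment. The proteins that replace histones in sperm stayed near the pool in thymus. There Tnp1 averaged -0.10 ± 0.15 (95% interval -0.25 to 0.05, adjusted p 0.877, arrays at -0.01 in Cy5 and -0.21 in Cy3 on average) and Tnp2 -0.08 ± 0.04 (-0.18 to 0.02, adjusted p 0.773, arrays at -0.03 and -0.13). Prm1 averaged 0.00 ± 0.09 and Prm2 0.06 ± 0.19. In fibroblasts Tnp1 averaged 0.09 ± 0.09, Tnp2 -0.03 ± 0.07 and Prm2 0.06 ± 0.15. Prm1 gave -0.01, 0.19, 0.65, 0.11 and 0.12 in hypomorph fibroblast embryos 1 to 5, with embryo 3 apart from the rest, a mean of 0.21 ± 0.26 (95% interval -0.03 to 0.45, adjusted p 0.349 in limma) and 0.10 without embryo 3. Prm1 arrays averaged 0.04 with the hypomorph in Cy5 and 0.38 with it in Cy3. Brdt, a testis bromodomain protein that compacts acetylated chromatin, averaged 0.01 ± 0.16 in thymus and 0.10 ± 0.13 in fibroblasts, and Crem, the activator of spermatid genes, -0.05 ± 0.09 and 0.01 ± 0.27. The acrosome protease Acr averaged 0.09 ± 0.22 in thymus (95% interval -0.11 to 0.29, adjusted p 0.917, arrays at 0.22 in Cy5 and -0.09 in Cy3 on average) and 0.02 ± 0.03 in fibroblasts, and the sperm tail protein Odf1 0.01 ± 0.07 and 0.03 ± 0.09. Tex101, a surface protein of germ cells, averaged 0.02 ± 0.09 and -0.01 ± 0.09, and the egg coat protein Zp3 0.03 ± 0.10 and 0.10 ± 0.09. Zpbp, which binds the egg coat, averaged -0.02 ± 0.30 and -0.03 ± 0.15. Its probes averaged -0.13 ± 0.52 and 0.08 ± 0.09 in thymus.

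Akap4, an X-linked anchor protein of the sperm tail, followed the embryo in thymus. It gave 0.26, -0.29, 0.32, -0.30 and 0.41 in hypomorph thymus embryos 1 to 5, so that embryos 1, 3 and 5 were above the pool and embryos 2 and 4 below. This order of signs, singled out after the values were seen, was shared by 11 of the 43 genes (25.6%), Acr, Msh4 and Prm2 among them, and by 20.2% of all features. Embryo 3 leaned on its array 2, which read 0.88 for Akap4, 1.19 for Acr, 0.85 for Msh4 and 1.08 for Prm2, against -0.24, 0.04, -0.04 and 0.14 on its other Cy5 array. Without that array, a setting added after seeing the data, embryo 3 was at 0.04 for Akap4 and -0.01 for Acr, and 7 of the 43 genes (16.3%) and 16.1% of all features kept the order. Thymocyte markers ran the other way, with medians of -0.31, 0.24, -0.17, 0.06 and -0.22 over 14 genes, erythroid markers gave 0.06, -0.21, 0.23, -0.30 and 0.12 over 7 genes, and Eif2s3y gave -3.43, 0.71, -0.40, 0.27 and -0.40. The median of the 43 genes was 0.02, -0.06, 0.06, -0.06 and 0.04 in the same embryos. The part of cell composition or sex in these values was not tested, and in bulk RNA fewer cells of a type and less RNA per cell cannot be told apart. In hypomorph fibroblasts Akap4 gave 0.00, 0.23, 0.14, 0.62 and 0.00, a mean of 0.20 ± 0.25 (95% interval -0.04 to 0.44, adjusted p 0.379, arrays at -0.01 in Cy5 and 0.40 in Cy3 on average), and 0.10 without array 4 of embryo 4.

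X-linked and cancer-testis genes other than Akap4 had medians of -0.02 in thymus and 0.03 in fibroblasts (4 measured). Rhox5, a homeobox gene of placenta and Sertoli cells, gave 0.00, -0.06, -0.10, -0.06 and -0.22 in hypomorph thymus embryos 1 to 5, a mean of -0.09 ± 0.08 (95% interval -0.20 to 0.02, adjusted p 0.803, arrays at -0.09 in Cy5 and -0.05 in Cy3 on average). In hypomorph fibroblasts it gave 0.04, 0.07, 0.01, 0.05 and 0.02, all just above the pool, a mean of 0.04 ± 0.02. Magea4, a melanoma antigen family gene, averaged 0.00 ± 0.16 and 0.02 ± 0.06, Tktl1, a transketolase-like gene, -0.03 ± 0.09 and -0.02 ± 0.05, and Tex13b 0.01 ± 0.19 and 0.04 ± 0.06.

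**Figure D3:**
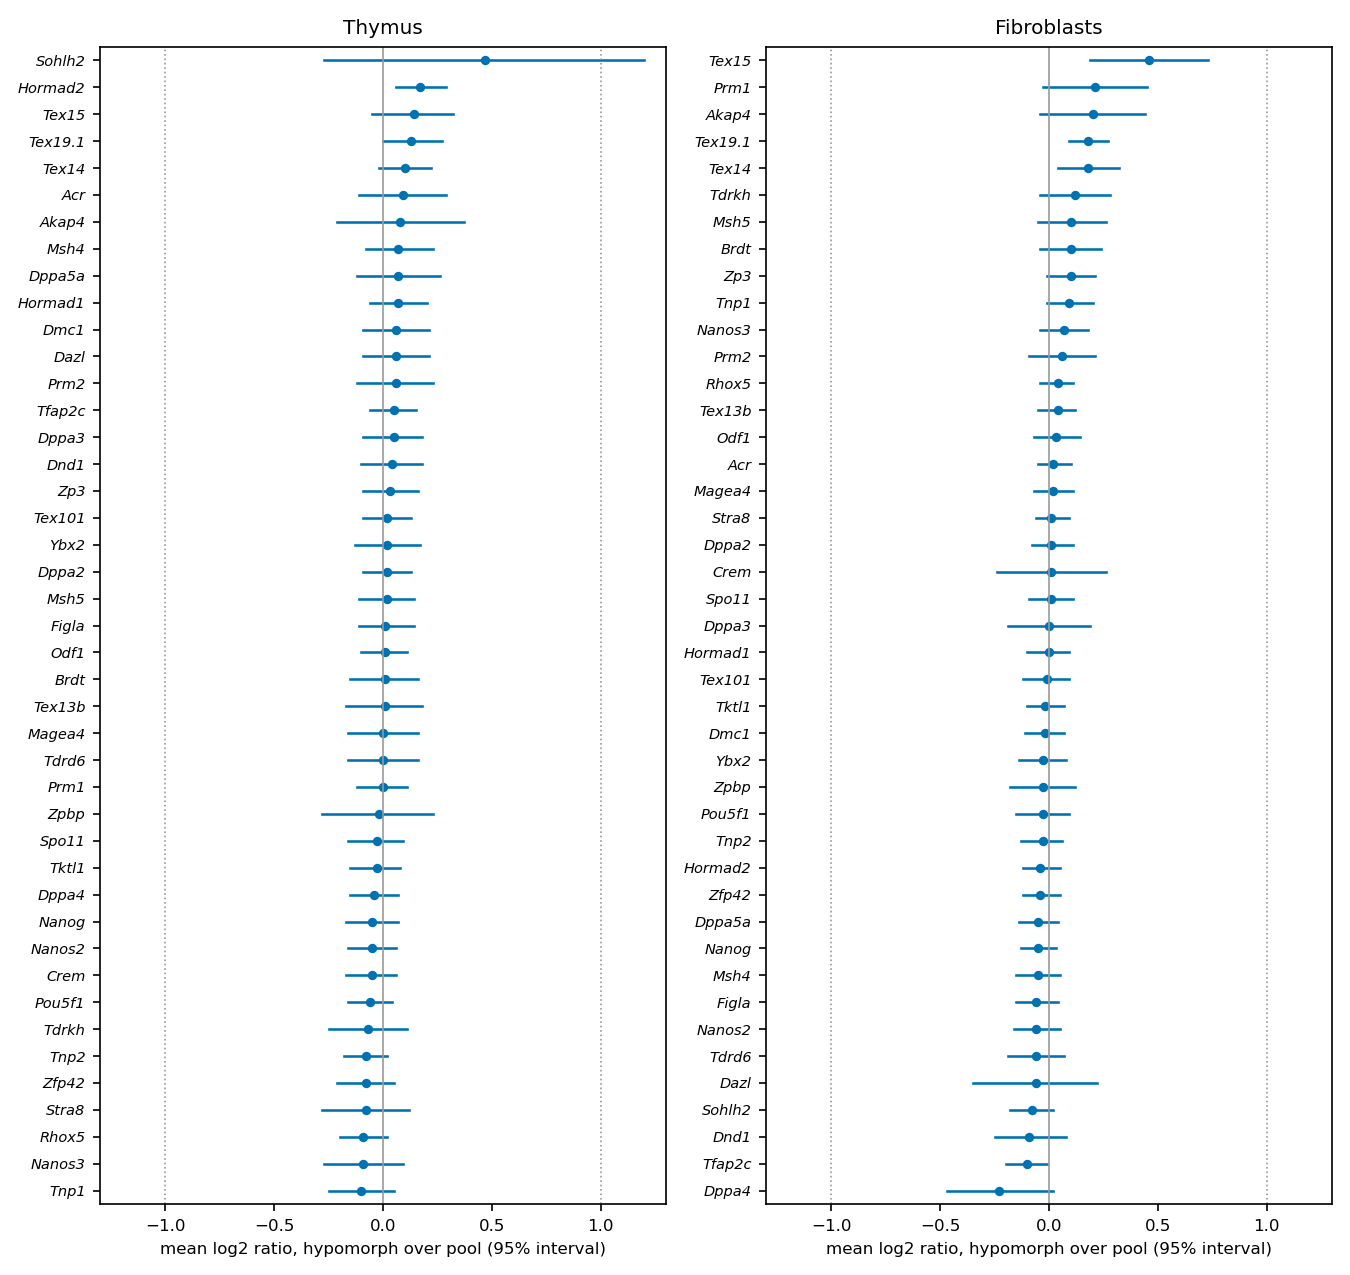
Mean log2 ratio of hypomorph over pool with its 95% limma interval for the 43 genes (rows, sorted by mean within a tissue), in thymus on the left and fibroblasts on the right; dotted lines stand at 1 log2 unit either side of 0. Only the Sohlh2 interval in thymus, -0.27 to 1.20, crosses a dotted line.

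The tissues were compared by the difference of their means in 1 model over the 10 embryos. Among the 43 genes 0 passed an adjusted p of 0.05, against 0.412% of 21850 features, and 5 had an unadjusted p under 0.05 (11.6%, against 15.4%). Hormad2 had the lowest p of the 5, with 0.17 in thymus and -0.04 in fibroblasts, a difference of 0.21 (95% interval 0.08 to 0.34, adjusted p 0.128 in limma). Tex15 lay lower in thymus by a difference of -0.32 (95% interval -0.64 to -0.01, adjusted p 0.315). The others were Tfap2c, with a difference of 0.15, Tnp1 with -0.19 and Rhox5 with -0.13. The tissues also differ in embryonic age, and age and tissue cannot be told apart.

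Other germline genes on the same arrays give the scale. The 4 named here were picked for passing the test or for large means with the same sign in all 5 embryos. Rpl39l, the testis copy of a ribosomal protein gene, rose in hypomorph thymus by 2.36 ± 0.44 log2 (adjusted p 0.0125 in limma), and Slc25a31, the testis ADP/ATP carrier, by 2.23 ± 0.59 (adjusted p 0.0499). Over 16 other settings Rpl39l passed in 12 (2.26 to 2.52, adjusted p up to 0.154, not without embryo 1, 3 or 5 or the 4 thymus arrays). Slc25a31 passed in 7 (2.00 to 2.45, adjusted p up to 0.220). It failed when any 1 embryo or the 4 thymus arrays were left out, uncentred, with bounds kept, and with 3 embryos required. For both genes the passes include Cy5 alone, Cy3 alone and the random block, settings in which many features passed. The meiotic crossover gene Tex11 averaged 1.85 ± 0.56 in thymus and 1.02 ± 0.61 in fibroblasts (adjusted p 0.0531 and 0.166), and the RNA helicase gene Ddx4 (Vasa) 0.93 ± 0.27 and 1.03 ± 0.46 (adjusted p 0.0531 and 0.130). Each of these 4 was above the pool in all 5 thymus embryos. Their lower 95% limits in thymus were 2.00, 1.75, 1.39 and 0.70, while the upper limits of the 43 genes, Sohlh2 apart, ended at 0.37 or lower. Because the 4 were picked for high ratios, this gap is no test. Their lists also held genes near 0 in thymus, such as Pgk2 (-0.02), Piwil1 (-0.06) and Rec8 (-0.03). In fibroblasts the interval of Tex15, which reached up to 0.73, overlapped those of Tex11 and Ddx4, which reached down to 0.47 and 0.61. Slc25a31 averaged 1.16 ± 0.34 there (95% interval 0.84 to 1.47, adjusted p 0.115 in limma), with its lower limit above that of Tex15's upper end. Rpl39l averaged 0.73 in fibroblasts.

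As groups, 11 synaptonemal complex and cohesin genes had a median of 0.25 in thymus and 0.18 in fibroblasts, 15 Vasa, Mael and piRNA genes 0.03 and 0.02, and 14 testis paralogues 0.06 and 0.03. The piRNA and testis paralogue groups held many genes near 0 beside a few that stood far above. Of the 11 synaptonemal and cohesin genes, 6 were above 0 in all 5 thymus embryos (against 3.53% of all features) and 1 below (against 4.86%). An unadjusted p under 0.05 with a higher mean in thymus (2.69% of all features) was found for 1 of the 43 genes, 6 of 11 synaptonemal and cohesin genes, 3 of 15 piRNA genes and 3 of 14 testis paralogues. One with a lower mean (4.79% of all features) was found for 0, 1, 0 and 0. In fibroblasts the counts with a higher mean (8.23% of all features) were 3, 5, 6 and 2, and with a lower mean (7.83%) 1, 0, 0 and 1. The set and the other lists were drawn up with earlier results of these data known, so the contrast between them is a description and was not tested.

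**Figure D4:**
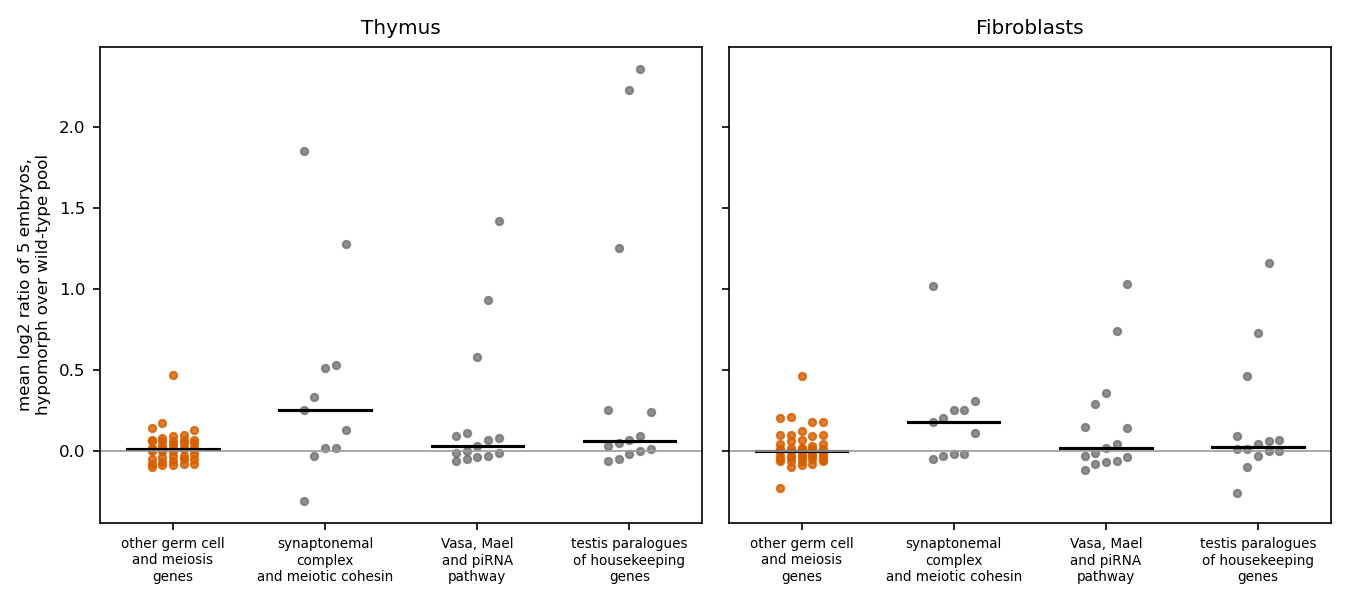
Mean log2 ratio over 5 embryos of the 43 genes (orange) and of the genes in the other germline lists (grey), in thymus on the left and fibroblasts on the right. Each point is 1 gene and each black line a median. The orange points end at 0.47 in thymus, while single grey points reach 2.36.

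Promoter CpG content was set beside the ratios for the 31 genes with a window, with no test. The 13 genes with at least 15 CpG had a median mean ratio of 0.06 in thymus (-0.07 to 0.47) and -0.01 in fibroblasts (-0.08 to 0.18). The 18 with fewer had -0.04 (-0.10 to 0.08) and 0.01 (-0.06 to 0.21). The 0.47 is Sohlh2, which averaged 0.06 without thymus embryo 5, and the next highest of the 13 in thymus was Hormad2. Dazl, with the most CpG of the windows printed, averaged 0.06 in thymus, against 0.17 for Hormad2 and 0.13 for Tex19.1, and -0.06 in fibroblasts, against -0.04 and 0.18. Slc25a31, with 22 CpG, lay at 2.23. Methylation was not measured on these arrays.

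Marker lists of other cell types were read beside the set. Somatic gonad markers, 12 in all, had a median of 0.02 in thymus (-0.10 to 0.06) and 0.00 in fibroblasts (-0.65 to 0.23), where 2 were below 0 in all 5 embryos. Thymic epithelium, a cell type known to express tissue-restricted genes, had medians of 0.01 (-0.11 to 0.12) and -0.03 (-0.30 to 0.13) over 13 markers. Germ cell identity genes outside the set, with Ddx4 and Mael of the piRNA list among them, had medians of 0.05 and 0.00 over 8 genes. Their means ran from -0.14 to 0.93 and from -0.22 to 1.03, with Ddx4 the highest. In each tissue 2 of them had an unadjusted p under 0.05 and a higher mean (against 2.69% and 8.23% of all features). These were Ddx4 and Mael, which the piRNA counts above already hold. With a lower mean there were 0 in thymus (against 4.79%) and 1 in fibroblasts (against 7.83%). The part of such cells in the values of the set was not tested. Fibroblast markers had medians of -0.04 (-0.42 to 0.36) and 0.22 (-0.56 to 1.40) over 13 genes. In thymus 5 of them had an unadjusted p under 0.05 with a lower mean (against 4.79% of all features) and 2 with a higher mean (against 2.69%). In fibroblasts there was 1 in each direction (against 7.83% and 8.23%). Because each tissue was read only against a pool of the same tissue, the identity of the tissues cannot be checked from these ratios.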

How the data were processed

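RNA of each hypomorph embryo was hybridised with a wild-type pool on 2-colour arrays in both dye orientations, per the labels. The deposited values are log2 ratios of 25344 spots on 38 arrays. The feature extraction and the normalization were not given in the sources used. Ratios were taken as hypomorph over pool because the bound of 16.61 was reached upward only with the hypomorph in Cy5 (445 values) and downward only with it in Cy3 (423 values); the labels do not settle this, and if it were wrong every sign would turn. Intensities were not used here, so signal over background is unknown.

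Bounded values were left out, the median of every array was set to 0, and arrays were averaged within each orientation and then over both, giving 1 value per embryo. Probes of 1 current symbol were averaged. Symbols came from GEO's platform annotation, updated through RefSeq: of the probes, 21111 had 1 symbol and 4233 none. Means were tested against 0 with lmFit and eBayes (limma 3.58.1, R 4.3.3), two-sided, adjusted by Benjamini-Hochberg over all features measured in all 5 embryos. Scripts were tested on simulated data. The wild-type pool's own spread does not enter, and the number of embryos limits the precision. The labels do not say whether the numbered samples are separate litters, and the p-values measure the spread between these samples.

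The genes and lists were chosen with earlier results of these data known. Every gene may be named; full statistics (interval, adjusted p, arrays by dye) went to those with an unadjusted p under 0.01 and to the 6 highest and 6 lowest means per tissue. Promoter windows are RefSeq's and matched by symbol.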

Additional observations from a re-analysis of the deposited data

Results flagged for a closer look

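Single embryos stood apart from the other 4 of their tissue for 7 of 86 gene and tissue groups looked at (8.14%), by Dixon's test of the gap to the nearest embryo. Chance gives about 1 in 20 for values with a normal spread. The share over all features was not counted, so this count shows nothing particular to the set. In thymus these were Sohlh2, at 2.08 log2 in embryo 5, and Zp3, at -0.14 in embryo 2. In fibroblasts they were Dmc1, at -0.13 in embryo 5, Nanos3, at 0.23 in embryo 1, Dppa4, at -0.68 in embryo 2, Ybx2, at 0.14 in embryo 5, and Sohlh2, at -0.21 in embryo 5. Sohlh2 of thymus embryo 5 rests on 1 array at 3.72 beside 1 at 0.43, and its cause was not tested. No gene of the set differed between the tissues by the test of the difference.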

How the results depend on the processing

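None of the 43 genes passed an adjusted p of 0.05 in either tissue, or between tissues, with values scaled to equal spread, not centred, with bounds kept, with probes tested singly, with 3 embryos required, without any 1 embryo, without the thymus arrays that lack the genotype, without the array below 0, or without the 3 doubted fibroblast arrays, the 4 thymus arrays below 0 or array 2 of thymus embryo 3 (these last 3 chosen after seeing the data). In these settings limma called 0 to 13 features in thymus, against 5 in the report, and 0 to 83 in fibroblasts, against 1. Between tissues 0 to 374 features passed over all settings, against 90. With the hypomorph in Cy5 alone 13 genes passed in thymus, among 4880 features, and 13 in fibroblasts, among 6307. With it in Cy3 alone 15 passed in thymus, among 5246 features, and 21 in fibroblasts, among 8144. By construction these settings keep the dye effect. The report's own tests covered 21947 features in thymus and 22025 in fibroblasts, so a large part of all features passed too. The counts of genes are therefore not read as a result about the set. With single arrays and the embryo as a random block 1 gene passed in thymus, among 413 features (Hormad2, 0.18, adjusted p 0.0290). In fibroblasts 1 passed, among 2110 features (Tex15, 0.46, adjusted p 0.00627). That setting takes technical repeats of an embryo as values. Its calls rose from 5 to 413 features in thymus and from 1 to 2110 in fibroblasts. The fibroblast median was 0.02 without centring, -0.05 with Cy5 alone, 0.06 with Cy3 alone and -0.01 to 0.01 without 1 embryo each. The thymus median stayed between -0.01 and 0.05.

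The sign of the mean turned with Cy5 alone for 18 of the 43 genes in thymus and 14 in fibroblasts, and with Cy3 alone for 16 and 18. The share over all features was not counted, so these counts show nothing particular to the set. Among the genes with full statistics the signs turned with Cy5 alone for Tnp1 (0.00), Nanos3 (0.18), Tex14 (-0.42) and Tex15 (-0.17) in thymus and Sohlh2 (0.05), Tex14 (-0.32), Akap4 (-0.01) and Hormad2 (0.19) in fibroblasts. They turned with Cy3 alone for Hormad2 (-0.06), Zfp42 (0.43) and Acr (-0.05) in thymus and Dppa4 (0.20), Dnd1 (0.16) and Tdrkh (-0.09) in fibroblasts. Dazl in fibroblasts gave 0.06 without embryo 3. Embryo numbers are shared between tissues of different ages and do not pair them (deviations correlated at -0.0352 to 0.0893); with the number as a replicate block 0 genes of the set and 1 feature passed between tissues, against 0 and 90 without it.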
